A study of Schizosaccharomyces pombe with 6 samples.

Results

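The right arm of chromosome I of the fission yeast Schizosaccharomyces pombe, from 3900001 to 5403000 in the coordinates of the array design, was examined for Rad52 occupancy. All 5119 of the 42707 tiling probes that lie there were taken, whatever their signal, and averaged in 1-kb bins. Of 1503 possible bins, 1461 held at least 2 usable probes, out of 12058 measured bins in all (12.1%). The other 42 bins of the arm had fewer than 2 or lacked a value on some array. The array headers name the build Spombe:NCBI:Feb2002, and bins are given in its coordinates. Dual-colour arrays compared Rad52 immunoprecipitate (IP) with input DNA in 3 samples of a strain deleted for rad3 (∆rad3) and 3 samples labelled wild type (WT). Input was labelled red and IP green on all 6 arrays, and bias between the dyes therefore remains in the ratios. Both strains carried cdc25-22, which stops cells before mitosis when they are warmed because the Cdc25 phosphatase fails. All cultures were held for 4 h at 36.5 °C, released at 25 °C, treated with 6 mM hydroxyurea and collected at 60 min. The protocol text attached to WT replicates 1 and 2 describes chromatin, and that of the other 4 arrays describes RNA. Only the RNA text gives a time for adding hydroxyurea, 10 min, and only the chromatin text gives a DNA fragment size. Since the chromatin text occurs only in WT, any difference in handling would be partly tied to strain. Whether replicates are separate cultures is not given in the labels. The p-values therefore measure the spread between these arrays, which may be technical.

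Rad52 is a DNA repair protein that binds single-stranded DNA and is a standard marker of sites where recombination proteins act on broken or stalled replication forks. Rad3 is the fission yeast ATR kinase, which with its partner Rad26 restrains origin firing and protects forks when hydroxyurea depletes nucleotides. Fission yeast origins lie mostly in AT-rich intergenic stretches, often between divergent promoters, because the origin recognition complex of this species binds runs of A or T through AT-hook motifs.

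Names on this arm needed a check of position, since the array design and the ASM294v3 reference differ there. Probe length, which follows base composition, matched the A+T content of ASM294v3 best at a shift of 6145 to 6153 bp in all 16 windows of 100 kb that cover the arm. The melting temperatures of the 1413 short probes had their smallest spread at 6150 bp, with an SD of 0.59 °C, against 0.66 °C at 1 bp to either side and 3.34 °C without a shift. The 107 windows on the other chromosomes and on chromosome I up to 3700000 matched within 20 bp of no shift, while the windows that flank the arm on either side matched at 6151 and 6152 bp. Genes and AT-rich islands are therefore given with their own ASM294v3 positions, and bins with those of the arrays. An AT-rich island was a stretch of ASM294v3 in which 1000-bp windows held at least 72% A+T, with at least 50% of it outside coding sequence. The arm held 38 islands, 1000 to 2100 bp long and a median of 42.6 kb apart, all of them in measured bins.

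The sequences below show the islands at either extreme of Rad52 signal in ∆rad3, so that their base runs can be compared. Each is the 300-base stretch with the most A+T inside the island that holds no base of an annotated messenger RNA, read from the forward strand of ASM294v3 (RefSeq), with runs of 6 or more A or T in capitals. The islands with the highest ∆rad3 means lay between hsp9 and ski7 (I:5321700-5321999, 80.7% A+T), between rpl3002 and atl1 (I:5096428-5096727, 78.7%) and between adg1 and SPAC2H10.04 (I:5270540-5270839, 84.0%). Annotated noncoding RNAs overlap 155, 175 and 17 of these bases, in that order, and 0, 198 and 0 in the lower set.
hsp9-ski7: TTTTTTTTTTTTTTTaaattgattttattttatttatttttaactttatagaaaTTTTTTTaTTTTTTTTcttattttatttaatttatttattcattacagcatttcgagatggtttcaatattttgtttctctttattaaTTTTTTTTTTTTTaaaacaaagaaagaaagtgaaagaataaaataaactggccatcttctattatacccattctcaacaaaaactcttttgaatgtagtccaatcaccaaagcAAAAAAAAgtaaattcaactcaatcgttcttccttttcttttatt
rpl3002-atl1: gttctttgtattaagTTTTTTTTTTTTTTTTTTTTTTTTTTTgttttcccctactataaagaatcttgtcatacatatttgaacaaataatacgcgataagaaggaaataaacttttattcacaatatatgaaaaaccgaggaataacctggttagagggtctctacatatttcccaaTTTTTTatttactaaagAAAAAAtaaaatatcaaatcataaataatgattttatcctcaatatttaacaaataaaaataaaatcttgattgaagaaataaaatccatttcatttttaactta
adg1-SPAC2H10.04: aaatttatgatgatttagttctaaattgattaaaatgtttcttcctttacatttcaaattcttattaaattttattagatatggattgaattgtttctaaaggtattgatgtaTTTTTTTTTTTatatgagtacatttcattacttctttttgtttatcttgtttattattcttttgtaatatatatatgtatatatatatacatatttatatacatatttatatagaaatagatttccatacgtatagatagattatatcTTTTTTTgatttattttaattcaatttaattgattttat
The islands with the lowest ∆rad3 means lay between mek1 and SPAC14C4.04 (I:5233458-5233757, 77.0% A+T), guf1 and not3 (I:4934144-4934443, 75.3%) and mnl1 and tsc3 (I:4087845-4088144, 79.0%).
mek1-SPAC14C4.04: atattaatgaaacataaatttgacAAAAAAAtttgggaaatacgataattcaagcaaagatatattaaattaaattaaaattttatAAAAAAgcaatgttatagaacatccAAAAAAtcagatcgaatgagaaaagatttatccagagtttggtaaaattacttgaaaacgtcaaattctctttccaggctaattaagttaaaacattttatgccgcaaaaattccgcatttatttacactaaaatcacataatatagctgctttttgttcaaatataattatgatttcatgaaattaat
guf1-not3: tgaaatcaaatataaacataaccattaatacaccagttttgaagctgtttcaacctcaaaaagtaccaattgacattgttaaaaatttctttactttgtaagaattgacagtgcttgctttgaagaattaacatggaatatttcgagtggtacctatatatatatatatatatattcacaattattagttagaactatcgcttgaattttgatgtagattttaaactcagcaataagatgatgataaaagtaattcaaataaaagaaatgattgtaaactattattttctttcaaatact
mnl1-tsc3: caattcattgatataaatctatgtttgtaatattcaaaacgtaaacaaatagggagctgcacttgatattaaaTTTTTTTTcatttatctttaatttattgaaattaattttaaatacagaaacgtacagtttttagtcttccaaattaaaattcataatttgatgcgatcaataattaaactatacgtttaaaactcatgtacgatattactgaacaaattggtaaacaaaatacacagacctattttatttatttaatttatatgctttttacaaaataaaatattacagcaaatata
The longest run in the printed stretches was 15, 27 and 11 bases in the first group, and 7, 5 and 8 bases in the second. In the whole islands it was 15, 27 and 33 bases in the first group, and 7, 8 and 10 in the second. The correlations that follow take runs of 6 or more in whole islands. Over all 38 islands the number of such runs correlated with the ∆rad3 mean at r = 0.32 and with the WT mean at r = -0.11, and the length of the longest run at 0.35 and -0.26. These are descriptions across islands that share libraries and base composition. A run of 6 or more is common: it is present in 53.2% of 5009 consecutive 300-base windows of the arm.

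The deleted gene was checked in the input DNA first. Of 25 probes inside the rad3 coding sequence on chromosome II, 9 were not well above background on each of the 3 ∆rad3 arrays, against 0 on WT replicates 1 and 3. On the library labelled WT replicate 2, 24 of the 25 were not well above background, so this library goes against its label and results that rest on it are also given without it. Across the 6 arrays, median signal was 5.04 to 20 times local background for input and 5.1 to 25.9 times for IP. Values below are log2 IP/input with each array's median at 0, and they hold unspecific IP signal too, since no control IP was hybridised.

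Averaged over the whole arm, Rad52 IP/input did not differ detectably between strains. The arm mean was -0.00, -0.06 and -0.05 on the ∆rad3 arrays and 0.02, -0.06 and -0.08 on the WT arrays. The difference, ∆rad3 minus WT, was 0.003 (exact permutation test, two-sided, p = 0.9, n = 3 each), where the smallest p this design allows is 0.1. Set against the rest of the genome on the same array, the arm lay lower by 0.04, 0.07 and 0.06 in ∆rad3 and by 0.00, 0.07 and 0.04 in WT.

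Along the arm, the 3 ∆rad3 arrays and WT replicate 1 stayed close to 0 in 100-kb windows, whereas the library labelled WT replicate 2 did not. The 15 full windows spanned -0.13 to 0.11, -0.20 to 0.04 and -0.22 to 0.12 on ∆rad3 replicates 1, 2 and 3. They spanned -0.08 to 0.09 on WT replicate 1, -0.56 to 0.77 on WT replicate 2 and -0.30 to 0.15 on WT replicate 3. All 3 ∆rad3 arrays and WT replicate 2 had their lowest window at I:4300001-4400000. WT replicate 2 had its highest in the last full window, I:5300001-5400000.

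**Figure D1:**
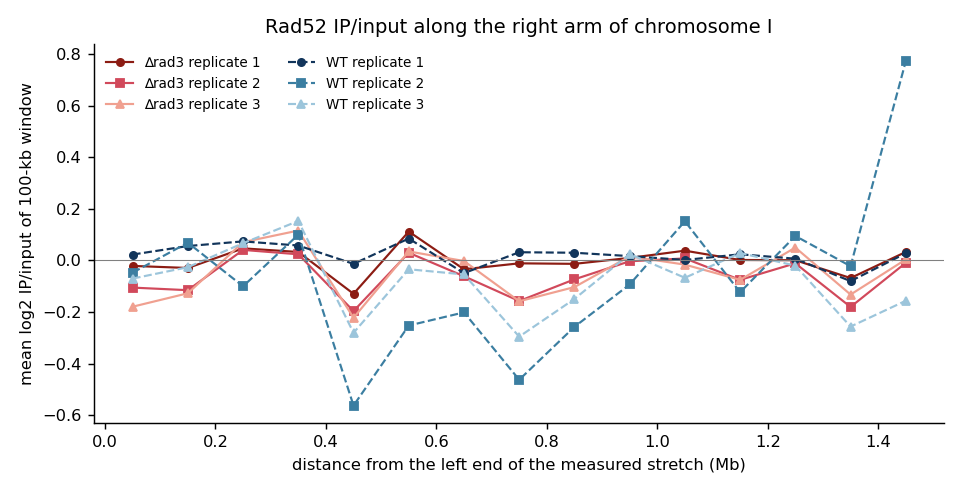
Mean log2 IP/input of 1-kb bins in 15 windows of 100 kb (vertical axis) against distance from the left end of the measured stretch in Mb (horizontal axis), with a line for each of 3 ∆rad3 (solid) and 3 WT (dashed) arrays. In the last window the ∆rad3 arrays lie between -0.01 and 0.03 and the WT arrays at 0.03, 0.77 and -0.16, the high one being the library labelled WT replicate 2.

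The high end of WT replicate 2 was a plateau that began at I:5320001 and ran to the end of the arm, a boundary chosen after the values were seen as the first of consecutive 10-kb windows with a mean of at least 0.5. Over these 83 bins the mean was -0.03, -0.05 and -0.09 on the ∆rad3 arrays, and 0.01, 0.87 and -0.16 on the WT arrays. WT replicate 2 was above 0 in all 83 bins and above every other array in 77 of them (92.8%), against 17.1% of the bins before the boundary. The input channel showed no such step: its mean there was -0.06, -0.02 and -0.06 in ∆rad3 and -0.14, -0.02 and -0.11 in WT. The IP channel did, at -0.11, -0.10 and -0.19 in ∆rad3 and -0.14, 0.85 and -0.28 in WT. In the 149 bins of chromosome I beyond the arm, the ∆rad3 arrays averaged 0.18, 0.15 and 0.29 and the WT arrays -0.09, 1.16 and -0.17, so WT replicate 2 stayed high. Of the plateau's 83 bins, 3 were called enriched in WT (rule below), against 3.15% of the arm and 3.11% of all bins. Without WT replicate 2 these 3 calls were lost (limma, adjusted p = 0.137 to 0.225).

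In ∆rad3, the arm's Rad52 peaks stood between genes, most often between divergent ones. With limma across all 12058 bins, 29 arm bins in 21 separate regions were enriched (a mean of at least 0.5 and an adjusted p, by the Benjamini-Hochberg method, under 0.05), which is 1.98% of the arm against 1.87% of all bins. Of the 29, 15 lay between divergent genes, 6 between tandem genes, 5 between convergent genes and 3 in coding sequence, while coding sequence held 63.0% and divergent spacers 13.1% of the arm's bins. An island midpoint fell in 9 of the 29 and within 1 kb of the centre of 14. Of the arm's 1461 bins, 2.60% hold one and 76 have one within 1 kb. Without WT replicate 2 the count was 57, or 3.9% of the arm against 4.83% of all bins. With the replicate block it was 68 (4.65% against 5.63%) and with both it was 73 (5.0% against 6.29%). Each of these sets held all 29.

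The highest bin was the spacer between hsp9, which encodes a small heat shock protein, and ski7, which encodes a GTPase that works with the Ski complex in messenger RNA decay. This bin, I:5315001-5316000, had 1.43, 1.72 and 2.19 in ∆rad3 and -0.19, 0.09 and -0.03 in WT. The groups did not overlap, and each ∆rad3 array was more than 1 unit above the highest WT array. At the probe nearest the island midpoint, 108 bp before it, the values were 2.54, 2.26 and 2.48 in ∆rad3 and 0.08, 0.05 and -0.40 in WT. Moving right, the first probe at which the strains overlapped lay 1156 bp past the midpoint, at -0.01, -0.23 and 0.22 in ∆rad3 and -0.33, -0.42 and 0.21 in WT.

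Next came the spacer between adg1 and SPAC2H10.04, an uncharacterized gene, whose bin I:5265001-5266000 had 1.29, 0.97 and 2.12 in ∆rad3 and -0.16, -0.33 and 0.10 in WT. The adjoining bin, which holds the island midpoint, had 1.08, 0.27 and 2.16 in ∆rad3 and -0.35, -0.50 and 0.06 in WT. Both bins were higher on every ∆rad3 array than on any WT array, but ∆rad3 replicate 2 was low in the second. The island between rpl3002, a gene for ribosomal protein eL30, and atl1, whose product binds alkylated guanine in DNA, had 1.30, 1.25 and 1.77 in ∆rad3 and 0.12, -0.34 and 0.59 in WT. The 5 probes of that bin were between 0.77 and 2.83 on the ∆rad3 arrays. Another region lay between mug157 and SPAC1093.07, at 1.09, 1.45 and 1.78 in ∆rad3 and 0.04, -0.13 and 0.66 in WT.

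Some other peaks of ∆rad3 held an RNA gene or lay beside a kinetochore gene. The bin with the small nucleolar RNA gene snoR54b, between the iron transport gene fio1 and the allantoicase gene dal2, had 1.17, 0.91 and 2.01 in ∆rad3 and 0.26, 0.20 and -0.00 in WT. The island beside mal2, which encodes a kinetochore protein, contains the 5S ribosomal RNA gene SPRRNA.19 and had 0.89, 1.24 and 1.34 in ∆rad3 and 0.20, 0.19 and 0.39 in WT. Neither set of values overlapped between strains. The spacer between SPAC26H5.09C, an oxidoreductase gene, and the 3' end of tif51, the gene for the translation factor eIF5A, had 0.95, 1.14 and 2.02 in ∆rad3 and 0.19, 0.49 and 1.17 in WT, and here the strains did overlap.

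**Figure D2:**
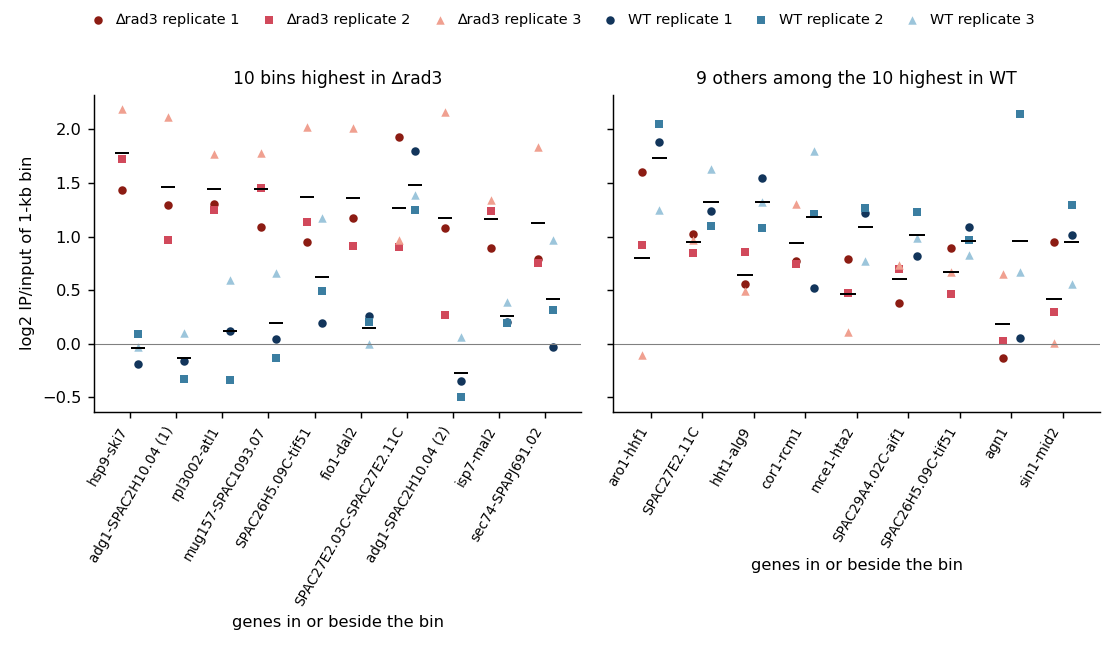
Log2 IP/input (vertical axis) of the 10 arm bins with the highest ∆rad3 mean (left) and of the 9 others among the 10 with the highest WT mean (right), named by the genes in or beside them. Points are arrays, with ∆rad3 left of WT in each pair, and black bars are group means (n = 3). The hsp9-ski7 bin averages 1.78 in ∆rad3 and -0.04 in WT, while the aro1-hhf1 bin averages 0.80 in ∆rad3 and 1.73 in WT.

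The highest WT mean on the arm was at the end shared by aro1 and the histone gene hhf1, and called WT bins were spread over coding and intergenic sequence. By the same rule 46 arm bins in 35 regions were enriched in WT, or 3.15% of the arm against 3.11% of all bins. With normexp background correction or with trended robust variances, 0 arm bins were called. Of the 46, 17 lay in coding sequence, 14 between convergent, 12 between tandem and 3 between divergent genes, and 1 held an island midpoint, where convergent spacers make up 6.5% of the arm's bins. Only 13 of the 46 were called without WT replicate 2, which called no others (0.89% of the arm against 0.912% of all bins). The replicate block called 88 (6.02% against 6.94%), all 46 among them, and the block without WT replicate 2 called 51 (3.49% against 3.44%). The strains shared 7 enriched bins, 24.1% of those of ∆rad3 and 15.2% of those of WT.

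The end shared by the histone H4 gene hhf1 and the aromatic amino acid gene aro1 gave the highest WT mean. This bin, I:4692001-4693000, had 1.60, 0.92 and -0.11 in ∆rad3 and 1.88, 2.05 and 1.25 in WT, so ∆rad3 replicate 1 overlapped WT. The higher of its 2 probes in WT lay at the end of aro1, outside hhf1. The next probe to the right, in hhf1 coding sequence, had 0.68 and -0.55 on ∆rad3 replicates 1 and 3. On WT replicates 1 and 3 it had 0.91 and -0.32, with no value on replicate 2 of either strain. A bin at the 3' end of the neighbouring histone H3 gene hht1, with 8.9% coding sequence, did not overlap between strains. It had 0.56, 0.86 and 0.49 in ∆rad3 and 1.55, 1.08 and 1.32 in WT. Averaged over both bins of hht1, the values were 0.48, 0.62 and -0.09 in ∆rad3 and 1.07, 0.49 and 0.86 in WT, which overlapped. At the histone H2A gene hta2 the bin had 0.79, 0.47 and 0.11 in ∆rad3 and 1.22, 1.27 and 0.77 in WT. The lowest WT array was there just below the highest ∆rad3 array.

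The other WT peaks ranged in their difference between strains. The bin between sin1 and mid2, a gene of septin ring organization, averaged 0.42 ± 0.48 in ∆rad3 and 0.95 ± 0.37 in WT (SD, n = 3 each). The spacer between SPAC27E2.03C, which encodes an Obg-like ATPase, and SPAC27E2.11C had 1.93, 0.90 and 0.97 in ∆rad3 and 1.80, 1.25 and 1.39 in WT, and was among the 10 highest bins of both strains. The end shared by cor1 and rcm1, a gene for a ribosomal RNA methyltransferase, had 0.77, 0.74 and 1.30 in ∆rad3 and 0.52, 1.21 and 1.80 in WT. Their differences, -0.21 and -0.24, were smaller than their standard errors of 0.28 and 0.30 (limma, adjusted p = 0.885 and 0.880). The bin in agn1, a glucanase gene of cell separation, had -0.13, 0.02 and 0.65 in ∆rad3 and 0.05, 2.14 and 0.67 in WT. Its WT mean of 0.96 rests on the library labelled WT replicate 2, without which it is 0.36, and it was not called enriched (limma, adjusted p = 0.0681).

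Compared directly, a single bin of the arm differed between strains, the hsp9-ski7 spacer, and it was the only one of all 12058 (0.00829%). It was higher in ∆rad3 by 1.82 (SE 0.23, limma adjusted p = 0.0368). Within slides 1, 2 and 3, each of which held a ∆rad3 and a WT array, the differences were 1.62, 1.63 and 2.22, and the replicate block gave an adjusted p of 0.00124. Leaving out any array other than ∆rad3 replicate 1 lost the call, with adjusted p from 0.0622 to 0.302, although the difference stayed between 1.62 and 1.89. With trended, robust variances the adjusted p was 0.101.

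With each slide's arrays paired by the replicate block, 18 bins of the arm in 12 regions were higher in ∆rad3, 1.23% of the arm against 0.813% of all bins. Of the 18, 9 held an island midpoint and 16 had one within 1 kb of their centre, against 38 and 76 of the arm's 1461 bins. All 18 had every ∆rad3 array above every WT array, as had 6.96% of all bins. In that fit 16 of them were enriched in ∆rad3 and 0 in WT. The 18 were chosen on these same values, so both counts follow in large part from that choice. Their within-slide values are those of 3 pairs, and same-numbered arrays deviated together by r = 0.43, 0.12 and 0.32 over the arm. With WT replicate 2 omitted, the block passed these 18 among 30 arm bins, 2.05% of the arm against 2.31% of all bins. It passed 6 as lower (0.411% against 0.182%), in a fit with 1 residual degree of freedom per bin. Without a block, 54 arm bins were higher at an unadjusted p under 0.05, 3.7% of the arm against 4.76% of all bins.

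Among these 18 was the start of rad26, the gene for the regulatory partner of the Rad3 kinase. The island it shares with ypt2, a gene for a Rab GTPase of secretion, had 0.94, 0.54 and 1.22 in ∆rad3 and -0.07, -0.39 and 0.10 in WT. The difference was 1.02 (SE 0.24, limma adjusted p = 0.180, and 0.0221 with the block). The island at iec1, which encodes a subunit of the INO80 chromatin remodeller, had 0.98, 0.60 and 0.87 in ∆rad3 and -0.48, -0.66 and 0.05 in WT. Strains did not overlap at either.

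A spacer with no island nearby was also in the set, although its bin held 71.5% A+T, against the 72% that an island window needed. Between gwt1, which acts in GPI anchor synthesis, and rps1102, a gene for ribosomal protein uS17, the bin had 0.97, 0.62 and 1.17 in ∆rad3 and -0.19, -0.58 and -0.16 in WT. Its difference of 1.23 (SE 0.23) had an adjusted p of 0.0781 by limma and 0.00710 with the block, and the nearest island midpoint was 21226 bp away. The cell wall genes gas1 and bgs3 share an island with 0.95, 0.91 and 1.45 in ∆rad3 and 0.17, -0.37 and 0.45 in WT. Its difference was 1.02 (limma adjusted p = 0.221, and 0.0244 with the block), and its input signal was higher by 0.43 in ∆rad3 (unadjusted p = 0.0349).

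No arm bin passed as lower in ∆rad3 with limma (0 of 1461, and 0 of all 12058). With the replicate block the count was also 0 on the arm, against 0.00829% of all bins. Without it 37 had an unadjusted p under 0.05, 2.53% of the arm against 2.22% of all bins. The smallest p in that direction was in prp40, a gene of the U1 splicing particle, at -0.22, -0.24 and -0.63 in ∆rad3 and 0.09, 0.72 and 0.42 in WT (adjusted p = 0.393). That bin and the one at snoR69, at -0.08, -0.15 and -0.53 in ∆rad3 and 0.17, 1.04 and 0.35 in WT, lie in the plateau of WT replicate 2. Without that library their differences were -0.62 and -0.51, against -0.77 and -0.78 with it. The coding sequence of cdc22, the large subunit of ribonucleotide reductase and so of the enzyme that hydroxyurea inhibits, had -0.02, 0.09 and 0.15 in ∆rad3 and 0.68, 0.99 and 0.43 in WT. The groups did not overlap, and the difference of -0.62 (SE 0.22) had a limma adjusted p of 0.578.

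Counted without a test, every ∆rad3 array was above every WT array in 84 arm bins and below in 97, or 5.75% and 6.64% of the arm, against 6.96% and 6.30% of all bins. The median difference over the arm's bins was -0.00.

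**Figure D3:**
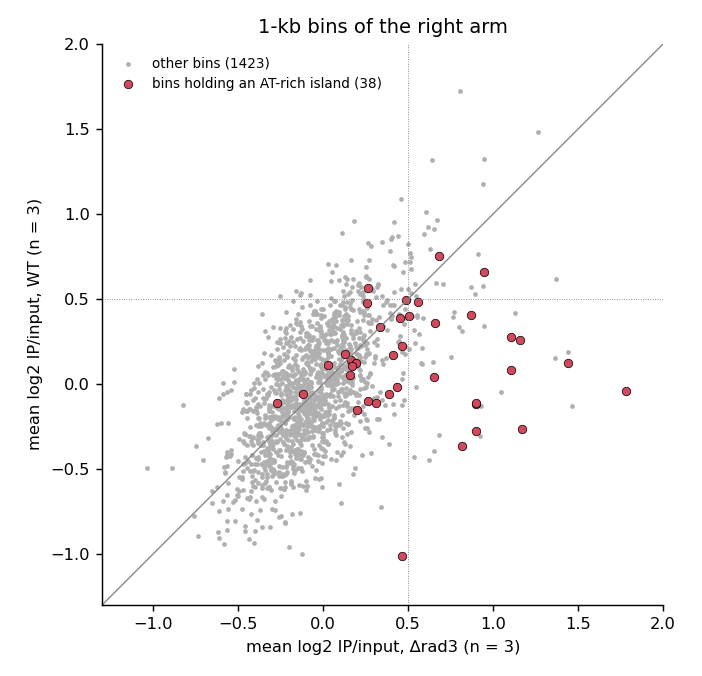
Mean log2 IP/input of each of the 1461 arm bins in ∆rad3 (horizontal axis, n = 3) and WT (vertical axis, n = 3), with the 38 bins that hold an AT-rich island midpoint in red and a line of equal levels. Dotted lines mark 0.5. The island bins spread to the right of the line, led by hsp9-ski7 at 1.78 in ∆rad3 and -0.04 in WT.

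Taken as a class, the arm's AT-rich islands carried more Rad52 than other bins in ∆rad3, with less of a contrast in WT. The 38 island bins averaged 0.44, 0.45 and 0.80 in ∆rad3 and -0.10, 0.14 and 0.30 in WT, and the 1423 other bins -0.01, -0.07 and -0.07 in ∆rad3 and 0.02, -0.07 and -0.09 in WT. The excess of islands over other bins was thus 0.46, 0.52 and 0.87 in ∆rad3 and -0.12, 0.21 and 0.39 in WT, which did not overlap. The difference of 0.45 had an exact two-sided permutation p of 0.1, the smallest possible with 3 arrays against 3, and was 0.58, 0.31 and 0.48 within slides 1, 2 and 3. Using the IP channel alone, the islands' excess (as a deviation from the mean of the 6 arrays) was 0.23, 0.35 and 0.19 in ∆rad3 and -0.30, -0.07 and -0.41 in WT. For the input channel it was 0.16, 0.22 and -0.29 in ∆rad3 and 0.21, 0.11 and -0.42 in WT, so slide 3 was lower in both strains.

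Islands of the rest of the genome had an excess of 0.40, 0.46 and 0.71 in ∆rad3 and -0.08, 0.37 and 0.36 in WT over 343 bins. The arm's excess minus that of the rest was 0.05, 0.06 and 0.16 in ∆rad3 and -0.04, -0.17 and 0.03 in WT (difference 0.15, exact permutation p = 0.1).

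Single islands of the arm differed widely. Their ∆rad3 means had a lowest value of -0.27, a median of 0.46 and a highest of 1.78, and their WT means -1.01 (-0.53 without WT replicate 2), 0.11 and 0.75. All 3 ∆rad3 arrays were above 0 at 31 of the 38, against 7 for all 3 WT arrays. In 14 islands every ∆rad3 array was above every WT array, as in 6.96% of all bins, and 29 had a higher mean in ∆rad3. Enrichment was called at 9 islands in ∆rad3 (23.7%, against 1.87% of all bins) and at 1 in WT (against 3.11%), the island between hht1 and alg9, which had 0.55, 0.80 and 0.70 in ∆rad3 and 0.66, 0.85 and 0.75 in WT. Without WT replicate 2 the WT call at that island was lost (limma, adjusted p = 0.0572). The 9 islands called in ∆rad3 had 70.8% to 72.5% A+T and the other 29 had 69.6% to 72.9%, ranges that overlap. Island length correlated with the mean at r = -0.08 in ∆rad3 and -0.09 in WT (n = 38, as a description).

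In ∆rad3, the islands beside rad17, rad1 and mek1 had lower means than the island at rad26, which averaged 0.90 in ∆rad3 and -0.12 in WT. The island at rad17, which encodes the checkpoint clamp loader, averaged 0.41 in ∆rad3 and 0.17 in WT. The island at rad1, a subunit of that clamp, averaged 0.31 in ∆rad3 and -0.11 in WT. Beside mek1, a meiotic kinase gene, the means were 0.03 in ∆rad3 and 0.11 in WT. Without WT replicate 2 the WT means were 0.02 at rad26, 0.05 at rad17, -0.47 at rad1 and -0.07 at mek1.

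The island signal in ∆rad3 was narrow. Bins with centres within 1 kb of an island midpoint averaged 0.35, 0.34 and 0.64 in ∆rad3 and -0.09, 0.13 and 0.26 in WT. At 1 to 2 kb the means were 0.10, 0.02 and 0.17 in ∆rad3 and 0.07, 0.13 and 0.06 in WT, which overlapped. At 10 kb or more they were -0.07, -0.13 and -0.15 in ∆rad3 and -0.02, -0.18 and -0.19 in WT.

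**Figure D4:**
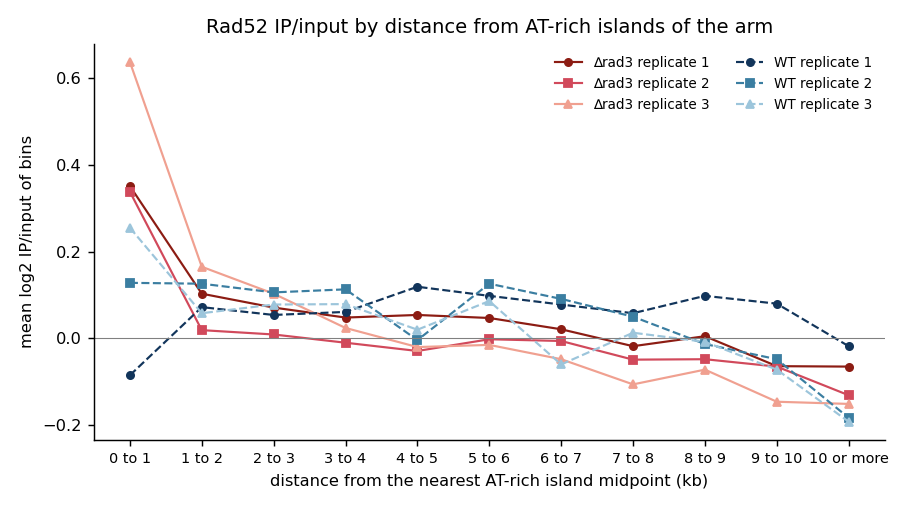
Mean log2 IP/input of arm bins (vertical axis) by distance of the bin centre from the nearest AT-rich island midpoint in kb (horizontal axis), with a line for each of 3 ∆rad3 (solid) and 3 WT (dashed) arrays. In the first kilobase the ∆rad3 arrays lie at 0.34 to 0.64 and the WT arrays at -0.09 to 0.26.

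Bins between divergent genes were also compared as a class. They averaged 0.10, 0.05 and 0.17 in ∆rad3 and -0.22, -0.04 and -0.05 in WT (192 bins), with no overlap (difference 0.21, exact permutation p = 0.1). Bins between convergent genes averaged 0.23, 0.13 and 0.08 in ∆rad3 and 0.30, 0.26 and 0.12 in WT (95 bins), which overlapped. The level of divergent minus that of convergent spacers was -0.14, -0.07 and 0.10 in ∆rad3 and -0.53, -0.30 and -0.17 in WT, a difference of 0.30 (exact permutation p = 0.1). Over the rest of the genome the same contrast was -0.13, -0.04 and 0.09 in ∆rad3 and -0.45, -0.22 and -0.13 in WT. With bins within 2 kb of an island left out, divergent spacers averaged 0.01, -0.03 and 0.02 in ∆rad3 (146 bins) and -0.25, -0.11 and -0.11 in WT, which still did not overlap. The divergent minus convergent level of such bins was -0.23, -0.16 and -0.05 in ∆rad3 and -0.59, -0.35 and -0.22 in WT, which did overlap (difference 0.24, exact permutation p = 0.2). Coding bins averaged -0.07, -0.12 and -0.13 in ∆rad3 and 0.04, -0.11 and -0.13 in WT. Across the 1461 bins, the level correlated with A+T content at r = 0.25, 0.24 and 0.23 on the ∆rad3 arrays and -0.29, -0.02 and 0.10 on the WT arrays, as a description of bins that share a library.

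**Figure D5:**
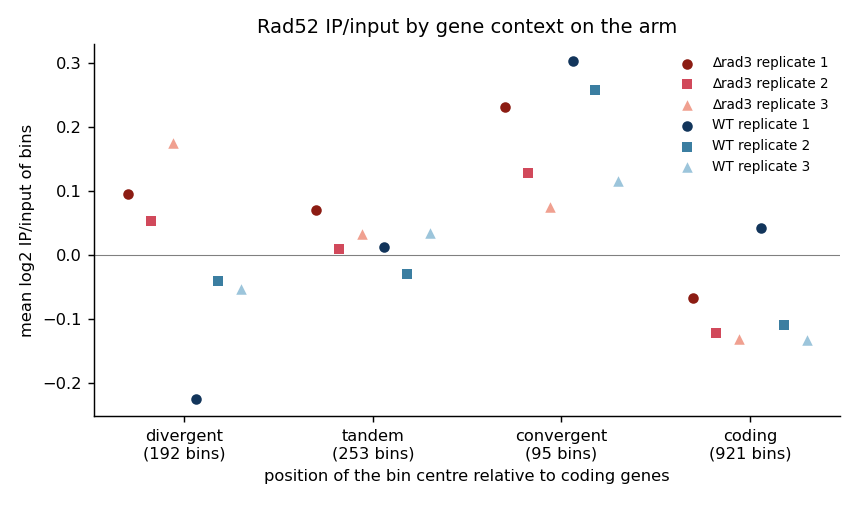
Mean log2 IP/input of arm bins (vertical axis) by position of the bin centre relative to coding genes (horizontal axis), with a point for each of 3 ∆rad3 arrays (red shades) and 3 WT arrays (blue shades). Divergent spacers lie at 0.05 to 0.17 in ∆rad3 and -0.22 to -0.04 in WT, while convergent spacers lie above 0 on all 6 arrays.

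Gene groups on the arm were counted by the bins that overlap their genes. Each count of enriched bins below stands against 1.87% of all bins enriched in ∆rad3 and 3.11% in WT. Among the 5 bins of the 3 histone genes, 0 were enriched in ∆rad3 and 3 in WT. Those 3 kept the call without WT replicate 2 (limma, adjusted p at most 0.0377). Means of the 5 bins were 0.71, 0.38 and 0.02 in ∆rad3 and 1.06, 0.81 and 0.69 in WT. Here ∆rad3 replicate 1 lay just above WT replicate 3 and the strains overlapped. The 2 bins with 5S ribosomal RNA genes averaged 0.80, 1.01 and 1.29 in ∆rad3 and 0.41, 0.39 and 0.74 in WT, and both were enriched in ∆rad3 and 1 in WT. The second of them, SPRRNA.20, had means of 0.91 in ∆rad3 and 0.77 in WT. Its WT call stayed without WT replicate 2 (limma, adjusted p = 0.0496).

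Small RNA genes gave mixed values. Of 10 bins with small nuclear or nucleolar RNA genes, 1 was enriched in ∆rad3 (1.87% of all bins) and 4 in WT (3.11%), and the means were 0.38, 0.18 and 0.10 in ∆rad3 and 0.46, 0.69 and 0.33 in WT. Without WT replicate 2 the WT calls at snR90, snoR38 and snoU24 were lost (limma, adjusted p = 0.0737, 0.132 and 0.139). The call at snoR69b stayed (limma, adjusted p = 0.0324). Of 9 bins with the 8 transfer RNA genes, 1 was enriched in each strain, that of SPATRNAALA.06. It averaged 0.70 ± 0.25 in ∆rad3 and 0.59 ± 0.16 in WT (SD, n = 3). Its WT call was lost without WT replicate 2 (limma, adjusted p = 0.105). Means of the 9 bins, 0.30, 0.21 and 0.20 in ∆rad3 and 0.20, 0.03 and 0.34 in WT, overlapped.

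The 24 bins of 15 cytosolic ribosomal protein genes averaged 0.16, 0.04 and 0.04 in ∆rad3 and 0.20, 0.32 and 0.16 in WT, with 0 enriched in ∆rad3 (1.87% of all bins) and 3 in WT (3.11%). Without WT replicate 2 these 3 bins, at rpl1602, rpl801 and rpl22, were not called (limma, adjusted p = 0.16, 0.151 and 0.0885). All 3 WT arrays were above their arm means of 0.02, -0.06 and -0.08. So were all 3 ∆rad3 arrays, whose arm means were -0.002, -0.059 and -0.049. The 5 replication genes (cdc1, rfc3, rfc2, cdc45 and rad2, 13 bins) averaged -0.05, -0.21 and -0.39 in ∆rad3 and -0.01, 0.03 and -0.14 in WT, and none of their bins was enriched in either strain. Of 20 bins of 7 recombination and checkpoint genes (mrc1, rad26, hus1, rad1, smc5, rad17 and nse6), 1 was enriched in ∆rad3, that of rad26, and 0 in WT. The 2 targets of the S-phase factor MBF on the arm, mrc1 and cdc22, had 8 bins, with 0 enriched in ∆rad3 and 2 in WT, both in cdc22. Without WT replicate 2 neither cdc22 bin was called in WT (limma, adjusted p = 0.0996 and 0.11). The 21 bins with long terminal repeats averaged 0.03, 0.03 and 0.19 in ∆rad3 and -0.18, 0.19 and 0.06 in WT.

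The lowest bins of the arm lay in coding sequence, apart from one island. In ∆rad3 these were mak1, a histidine kinase gene, at -0.62, -0.39 and -2.11 in ∆rad3 and -0.06, -0.53 and -0.90 in WT, together with ptr1 and hrp3. In each of the first 2, ∆rad3 replicate 3 was far below the other arrays. In WT the lowest were the island bin at mug157, at 0.35, 0.24 and 0.80 in ∆rad3 and -0.47, -1.99 and -0.59 in WT, then tif302 and ypa1. Without WT replicate 2 the WT mean of the mug157 bin was -0.53, against -1.01 with it, and those of tif302 and ypa1 were -1.09 and -1.15.

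The strains' input DNA was compared in the same way. With limma on the input channel, 0 arm bins differed between strains (0 of all 12058), with or without the block or WT replicate 2. At an unadjusted p under 0.05, 1 arm bin was higher and 1 was lower in ∆rad3, each 0.0684% of the arm, against 0.0912% and 0.0829% of all bins. At the hsp9-ski7 bin the input differed by 0.01 and the IP by 1.81, and at the rpl3002-atl1 island by 0.04 and 1.34.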

How the data were processed

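The data are 6 Agilent tiling arrays. Per the labels, the red channel held input and the green channel IP. Spot intensity in both channels was extracted by the authors with Agilent Feature Extraction 10.7.3.1, per the submitters' processing notes, which subtracts background and normalizes dyes. The deposited log10 ratio, red over green, served as an alternative. From the deposited intensities, log2 green over red was computed, centred on each array's median and averaged in 1000-bp bins with at least 2 probes, without loess. A probe needed input signal well above background on at least 3 arrays. Limma 3.58.1 (R 4.3.3) was fitted to 12058 bins, with Benjamini-Hochberg adjustment, without the replicate number as a block. The scripts were tested on simulated data. The precision is limited by the number of arrays.

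The replicate number is also the slide and scan date per the file headers, so slides were taken to pair the arrays. Same-numbered arrays deviated together over all bins at r = 0.47, 0.10 and 0.26. Values with the block stand beside the counts and beside some of the single bins whose call it changes. The described bins at adg1, atl1, mug157, snoR54b, mal2 and iec1 also passed with the block and not without it. Bins named are the 10 highest in each strain, the 10 with the smallest p in each direction, those that passed with or without the block, and the 3 lowest per strain. Of these, 5 further bins that passed with the block were added after their values were seen. The members and lists were chosen with earlier results of these data known.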

Additional observations from a re-analysis of the deposited data

How the results depend on the processing

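The islands' excess kept its direction under every alternative run, from 0.22 to 0.62, but 3 arrays against 3 cannot give an exact p under 0.1. Counts of called bins moved more, and the cause was not tested. Bins enriched in ∆rad3, 29 in the report, numbered 67 with arrays scaled to one spread, 12 with trended robust variances, 68 with the replicate block, 70 on the arrays with the RNA text, 73 with the block and WT replicate 2 omitted, and 7 to 57 with one array left out. Bins enriched in WT, 46 in the report, numbered 0 with normexp background correction, 0 with trended robust variances, 88 with the replicate block and 12 to 92 with one array left out. Bins higher in ∆rad3 than WT, 1 in the report, numbered 13 with normexp, 15 with scaling, 0 with trended robust variances, 18 with the fixed and 16 with the random replicate block, 3 on the arrays with the RNA text (3 ∆rad3 arrays against 1 WT array, whose spread is assumed to be that of ∆rad3), 30 with the block and WT replicate 2 omitted, and 0 to 1 with one array left out. Lower bins numbered 6 in that last block fit and 0 otherwise. The arm mean difference turned to -0.016 with scaling, to -0.021 with a stricter filter on dim probes, and ranged from -0.015 to 0.033 with one array left out. Among 786 differences of named bins under an alternative, 698 kept direction and side of the threshold, 78 newly passed, 6 no longer passed and 4 changed sign. The 4 were bin I 4262001 (0.04 with scaling, and -0.57 to 0.07 with one array left out), bin I 5210001 (-0.64 to 0.03 with one array left out) and bin I 5375001 (0.005 on the arrays with the RNA text). The block with WT replicate 2 omitted and the input fits with it were added after seeing the data. Signal over background was lowest on the slide 3 arrays, which limits their single bins.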
